A study of Mus musculus with 6 samples.

Results

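Described here are epithelial cells of the mouse small intestine with Rbp7 RNA, called Rbp7 gate cells. They held little RNA of chosen mitosis, goblet, apolipoprotein and ileal bile acid binding genes. A barcode was a member when it held at least 500 genes, at most 25% mitochondrially encoded UMIs, at least 2 UMIs of Rbp7 and none of Ada. Per 10000 UMIs it also had to hold fewer than 20 of Fabp6, fewer than 40 of 3 apolipoprotein genes (Apoa1, Apoa4, Apoc3) together, fewer than 30 of 4 goblet genes (Zg16, Clca1, Fcgbp, Muc2) together and fewer than 8 of 8 mitosis genes (Mki67, Top2a, Ube2c, Cdk1, Birc5, Nusap1, Prc1, Cenpf) together. Of 26153 barcodes in 6 libraries, 26045 passed the gene and mitochondrial limits and 6713 were members. The cells were thus chosen by the measured counts of these genes, whose levels inside the gate are a description and no finding. A UMI is a molecular tag that counts each captured RNA molecule once.

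Intestinal epithelial cells are born in the crypt, stop dividing as they leave it and move up the villus over several days. On the way an absorptive cell loses stem and replication genes, gains the enzymes and transporters of the brush border, and changes its programme with height: defence genes are known from the lower villus, fat and sugar handling from the middle and Ada from the tip. Rbp7 encodes a small retinol-binding protein of the cytosol and Dmbt1 a secreted scavenger-receptor protein that binds bacteria. Arg2 encodes the mitochondrial arginase and Casp6 an executioner caspase. These 4 genes give the population its working name, early lower-villus enterocytes, and position on the villus was not measured.

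The study set C57BL/6J mice of 8 weeks with the wild-type genotype, 3 libraries, against mice labelled Itgb7 KO, 3 libraries. Itgb7 encodes the integrin β7 chain, which pairs with integrin αE on lymphocytes that sit in the epithelium and bind E-cadherin. Epithelial cells of the small intestine were captured by droplet single-cell RNA sequencing of 3′ ends. The labels do not say how much of the small intestine was taken, whether 1 mouse gave 1 library, nor which bases the knockout removes. In the gate, 6 of 13 tested proximal intestine markers and 5 of 14 distal ones had a positive log2 difference between the genotypes. The medians were -0.03 and -0.09. These lists hold Apoa4, Apoc3 and Fabp6, whose levels the rule limited, so the counts are no check on the region taken. Since the labels leave the link of mouse to library unsaid, a p-value here reflects how far these libraries differ from each other. That spread may be technical.

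Rbp7 gate cells numbered 573, 1352 and 1755 in wild-type replicates 1, 2 and 3, against 592, 1462 and 979 in the libraries labelled Itgb7 KO. Their summed UMIs ran from 6175047 to 21899869 per library. The median gate cell held 21537, 11657 and 12236 UMIs in the wild-type libraries against 19672, 9075 and 6130 in the others, so the libraries numbered 1 were the deepest per cell and Itgb7 KO replicate 3 the shallowest. The median share of mitochondrially encoded UMIs ran from 3.78% to 4.56% in the wild-type gate cells and was 4.13%, 4.34% and 5.45% in the others. Itgb7 itself gave 0, 1 and 1 UMIs in the wild-type gate cells against 5, 9 and 2 in the cells labelled Itgb7 KO. The direction is opposite to the label at a count too low to check it, and a 3′ tag outside a deleted part would check nothing, so every direction below is between libraries as labelled.

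Both libraries numbered 1 stood apart from the other 4 through RNA of Paneth cells, the crypt-base cells that secrete defensins. Levels are given as CPM, the UMIs of a gene over all UMIs of the summed cells, scaled to the same total in every library. The summed level of 12 Paneth markers in the gate was 104980 CPM in wild-type replicate 1, 94779 CPM in Itgb7 KO replicate 1 and between 152.55 and 1563 CPM in the remaining 4. Cells with more than 200 Paneth marker UMIs per 10000 numbered 26 and 28 in the libraries numbered 1, where they held 20.4% and 19.2% of the gate's UMIs, and 0, 3, 0 and 0 elsewhere. The median gate cell still held 82.4 and 39.3 Paneth marker UMIs per 10000 in the libraries numbered 1, against 1.40 to 3.59 in the other 4. In all, 134 of 6713 gate cells were rich in Paneth, enteroendocrine, tuft or goblet markers, and results that rest on them are given with and without them. With them left out, the Paneth sum was 8208 and 3955 CPM in the libraries numbered 1 and 152.15 to 373 CPM in the rest.

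**Figure D1:**
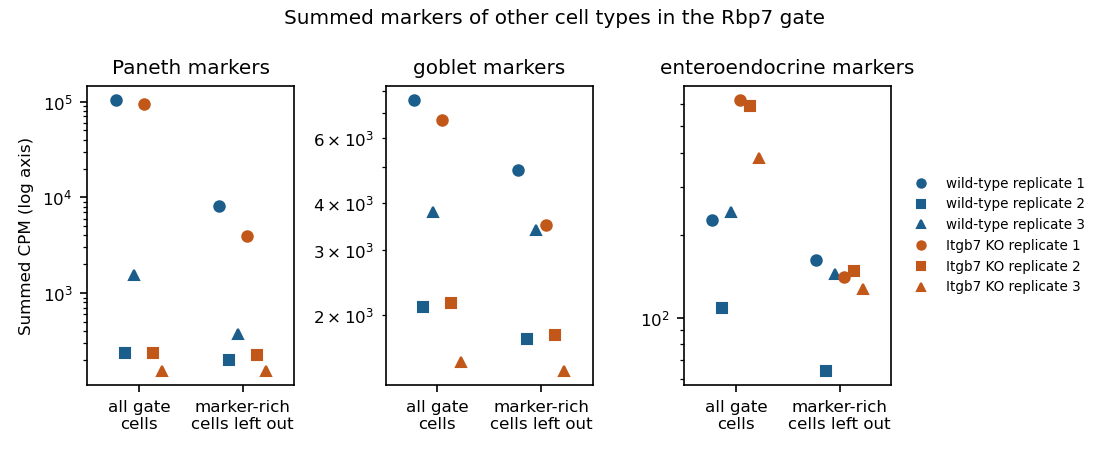
Summed CPM (log axis) of Paneth, goblet and enteroendocrine markers in Rbp7 gate cells, 1 point per library, for all gate cells and after cells rich in such markers were left out. The Paneth sum of both libraries numbered 1 is 104980 and 94779 CPM with all cells, and the enteroendocrine sum of the 3 libraries labelled Itgb7 KO lies between 382 and 624 CPM, above the 109 to 243 CPM of the wild-type libraries, until the marker-rich cells are left out.

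T cell RNA was almost absent from the gate. The summed level of 14 T cell markers was 0.928 to 2.68 CPM in the wild-type libraries and 0.423 to 1.13 CPM in those labelled Itgb7 KO, 6 markers were at 0 in every library, Ptprc (CD45) and Cd8a among them, and no gate cell held 3 or more of the markers. Barcodes seen in more than 1 library numbered 410 in all, and 192 gate cells carried one. The cells with the highest doublet scores, taken in a number that grows with the barcodes of a library, included 200 gate cells and were kept.

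The limit on Rbp7 was the one that most often decided membership. Of the cells that missed the gate through 1 limit alone, 6334 missed it on Rbp7, 3207 on the mitosis genes, 468 on Ada, 345 on Fabp6, 336 on the goblet genes and 255 on the apolipoproteins. Just inside it, cells with exactly 2 Rbp7 UMIs numbered 132, 299 and 343 in the wild-type libraries against 123, 366 and 389 in the others. Just outside it, cells with 1 UMI that passed every other limit numbered 161, 395 and 448 against 168, 569 and 586. The median gate cell held 4, 4 and 5 Rbp7 UMIs in the wild-type libraries, and 4, 4 and 3 where the label was Itgb7 KO.

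Free RNA could give a cell Rbp7 tags it did not make. Each cell with at least 3000 UMIs was therefore thinned to 3000, and goblet cells were read as a reference. At that depth 1.03% to 2.13% of goblet cells held 2 or more Rbp7 UMIs, against 16.6% to 49.8% of gate cells, which had been chosen for them at full depth. Before thinning, the share of goblet cells with 2 UMIs was 22.6%, 10.8% and 10.5% in the wild-type libraries against 17.1%, 10.1% and 2.65% in the others, at median depths of 21535, 11418, 11783, 18106, 8998 and 5914 UMIs. Cycling cells, which failed the mitosis limit, held 2 or more thinned Rbp7 UMIs in 12.3% to 29.1%, so Rbp7 was not limited to cells that had stopped dividing. Fabp6-high cells, which were not chosen on Rbp7, held 2 or more thinned Rbp7 UMIs in 14.6% to 29.4%. Apolipoprotein-high cells, also not chosen on Rbp7, did so in 1.34% to 11.7%. Among all cells that passed the other limits, whatever their Rbp7, the share was 10.2% to 24.0%. Rbp7 was thus not particular to the gate.

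In its levels the population was intermediate between cycling cells and the apolipoprotein-high enterocytes (973 cells) that hold at least 40 apolipoprotein UMIs per 10000. The comparison is a description with no test, because the rule used the same counts. Arg2 averaged 172 CPM in cycling cells, 390 in the gate and 827 in apolipoprotein-high cells. Casp6 averaged 145, 307 and 481 CPM in the same order. Dmbt1 was different: it averaged 754 CPM in cycling cells and 832 in the gate, 380 in apolipoprotein-high cells. With all cells it was lower in the gate than in cycling cells in both libraries numbered 1 (866 against 931 and 919 against 991 CPM), and with marker-rich cells left out it was higher in the gate in all 6 libraries, at 1055 against 953 and 1109 against 1012 CPM in those 2. Arg2 and Casp6 were higher in the apolipoprotein-high cells than in the gate in all 6 libraries, and Dmbt1 was abundant in cycling cells, so none of the 3 naming markers outside the rule was limited to the gate.

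Most genes of absorptive function were partly on in gate cells. Rbp2, the retinol-binding protein of mature enterocytes, averaged 268 CPM in cycling cells, 1171 in the gate and 8990 in apolipoprotein-high cells. Fabp1, a fatty-acid binding protein, averaged 296, 1097 and 8943 CPM. Anpep, a brush border aminopeptidase, averaged 49.97, 232 and 1127 CPM. Each of the 3 genes kept that order in every library.

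Counted over lists, the order cycling, gate, apolipoprotein-high was rising in 6 of 6 libraries for 14 of 16 brush border enzyme genes, 15 of 17 brush border structure genes, 15 of 16 genes of fatty acid uptake and lipid packaging, 23 of 25 xenobiotic enzymes and 14 of 15 villus transporters. Over all 5919 genes with at least 20 CPM the share was 16.1%. The lower villus list, which holds the naming markers, Reg lectins and gasdermins, was rising for 10 of 13. Its sum averaged 11960 CPM in the gate, 29337 in apolipoprotein-high cells and 29868 in Fabp6-high cells. The sum of the antimicrobial and mucosal defence list averaged 16340, 28273 and 29498 CPM in the same groups. The gate was thus not the group highest in genes of the lower villus. All 11 measured stem markers and all 26 ribosomal protein genes were falling, against 29.3% of all genes. With marker-rich cells left out of every population, the counts were 14 of 16, 17 of 17, 15 of 16, 24 of 25 and 14 of 15 in the same order, 10 of 13 for the lower villus list, and again 11 stem markers and 26 ribosomal genes falling, against 19.8% of all genes rising and 31.6% falling. Smoc2, a stem marker, averaged 113, 42.7 and 12.3 CPM, and the ribosomal stalk gene Rplp0 5695, 4709 and 3033 CPM.

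How many genes peaked in the gate rested on the marker-rich cells. With all cells 29 of the 5919 genes (0.49%) were highest there in 6 of 6 libraries in this order, and without those cells 221 of 5905 (3.74%), the 29 among them. They included Lgals2 (galectin-2) at 7230 CPM against 5979 in cycling and 4374 in apolipoprotein-high cells, Pglyrp1, a peptidoglycan recognition protein, at 369 against 321 and 243, and the endoplasmic reticulum chaperone Pdia3 at 343 against 302 and 293. The gasdermins Gsdmc4 and Gsdmc2, relatives of the pore-forming proteins of pyroptosis, averaged 82.7 and 40.4 CPM in the gate. In cycling cells they averaged 40.1 and 23.7 CPM and in apolipoprotein-high cells 41.7 and 15.1 CPM. Both were higher still in Fabp6-high cells, at 275 and 126 CPM.

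**Figure D2:**
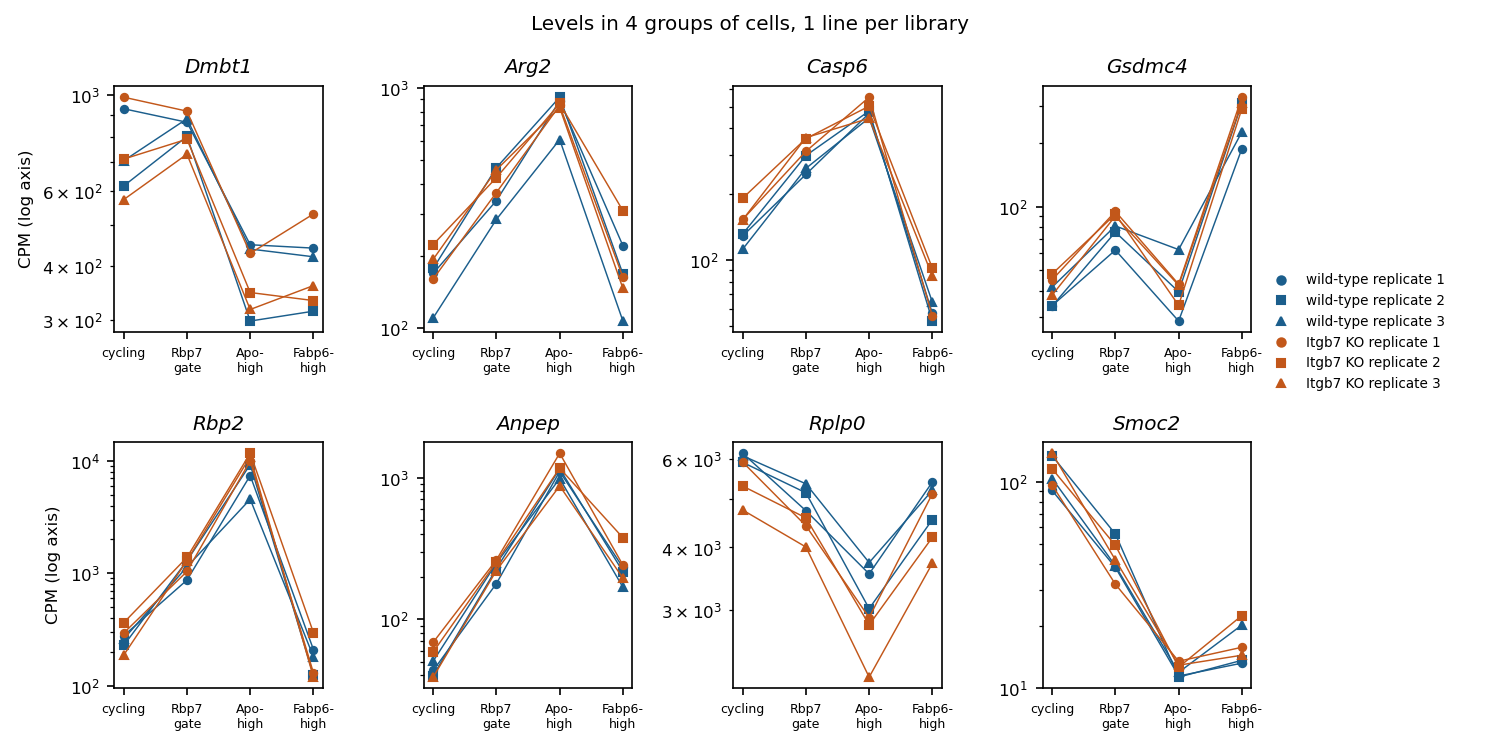
Level in CPM (log axis) of 8 genes in cycling cells, Rbp7 gate cells, apolipoprotein-high (Apo-high) cells and Fabp6-high cells, 1 line per library, blue wild-type and orange labelled Itgb7 KO. Arg2, Casp6, Rbp2 and Anpep climb from cycling to gate to Apo-high cells, Rplp0 and Smoc2 decline over the same steps, and Gsdmc4 is higher in the gate than in either neighbour.

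The 606 Fabp6-high cells, which carry the ileal bile acid binding protein, differed from the gate in both directions. Reg1, a secreted C-type lectin, averaged 823 CPM in the gate and 83.6 CPM there. Fabp1 averaged 1097 against 132 CPM, Rbp2 1171 against 176 CPM and Casp6 307 against 67.8 CPM. The alcohol dehydrogenase Adh6a averaged 345 CPM in the gate and 59.6 CPM in Fabp6-high cells. On the other side, the bile acid exporter subunit Slc51b averaged 51.1 CPM in the gate against 335, the metalloprotease Mep1a 6.37 against 104, and the antibacterial lectin Reg3b 2586 against 14387 CPM.

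Against apolipoprotein-high cells, the gate kept genes of proliferation. Ccnd2, a G1 cyclin, averaged 419 CPM against 79.1 CPM, and Ccnb2, a mitotic cyclin that is not among the rule's genes, 83.3 against 8.84 CPM. Lower in the gate were the glucose transporter Slc2a2 (7.71 against 120 CPM), lactase, Lct (7.99 against 127 CPM), and the glutathione transferase Gsta1 (189 against 1523 CPM). Reg1, which was higher in the gate than in Fabp6-high cells, was lower here, at 823 against 4526 CPM. Relative to cells of the same limits with no Rbp7 UMI, Dmbt1 averaged 832 against 487 CPM. Gip and Chgb, hormone and granule genes of enteroendocrine cells, averaged 97.2 and 29.6 CPM in the gate against 1440 and 867 CPM in those cells, so enteroendocrine RNA was far higher among the cells without Rbp7. Out of 2594 genes with at least 50 CPM, 4 (0.154%) exceeded the Ada, apolipoprotein-high and Fabp6-high cells in 6 of 6 libraries, where the Ada group had 66 cells. With marker-rich cells left out the count was 12 of 2675 (0.449%), 3 of the 4 among them.

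Inside the gate, cells differed by how much Rbp7 they held. Dmbt1 averaged 487, 684, 808, 797 and 870 CPM in cells with 0, 1, 2, 3 to 4 and 5 or more Rbp7 UMIs, so that most of the step lay between 0 and 2 UMIs. Arg2 (398, 367 and 405 CPM at 2, 3 to 4 and 5 or more) and Casp6 (303, 295 and 318 CPM) showed little order inside the gate. With marker-rich cells left out, Dmbt1 averaged 870, 897 and 915 CPM at these counts, Casp6 325, 329 and 334, and Arg2 428, 408 and 424. With all cells, Ccnb2 averaged 59.99, 72.5 and 105 CPM and Lmna, a nuclear lamin, 105, 115 and 140 CPM. Reg1 ran the other way, with 1186, 778 and 692 CPM.

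Some genes were lowest where Rbp7 was highest. Slc12a2, a chloride cotransporter of the crypt, averaged 216 CPM in cells without Rbp7, 89.5 at 2 UMIs and 53.5 at 5 or more. Ifitm3, an interferon-inducible membrane protein also found in stem cells, averaged 343, 163 and 82.8 CPM. Both were falling over 0, 2, 3 to 4 and 5 or more UMIs in 6 of 6 libraries, and with marker-rich cells left out Ifitm3 was in 6 and Slc12a2 in 5. Of 2594 genes, 531 were higher and 113 lower at 5 or more UMIs than at 2 in 6 of 6 libraries. With all cells, Paneth RNA also differed with Rbp7 UMIs. Its marker sum was 99889 CPM at 2 UMIs, 174193 at 3 to 4 and 48004 at 5 or more in wild-type replicate 1. The sums were 86587, 120784 and 80552 CPM in Itgb7 KO replicate 1, and 3599, 2384 and 418 in wild-type replicate 3. Both libraries numbered 1 were thus highest at 3 to 4 UMIs. Without marker-rich cells the Paneth sums were 8165, 8302 and 8170 CPM in wild-type replicate 1 and 3901, 3971 and 3966 in Itgb7 KO replicate 1. In wild-type replicate 3 they were 370, 379 and 370 CPM, so these differences rested on the marker-rich cells. With marker-rich cells left out, 461 genes were higher and 155 lower, 422 and 99 of them shared with the first counts. Depth per cell moved little with this split in the deepest library (medians of 21697 UMIs at 2 and 21518 at 5 or more) and more in wild-type replicate 3 (11682 and 12527), and its part in the split was not tested.

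**Figure D3:**
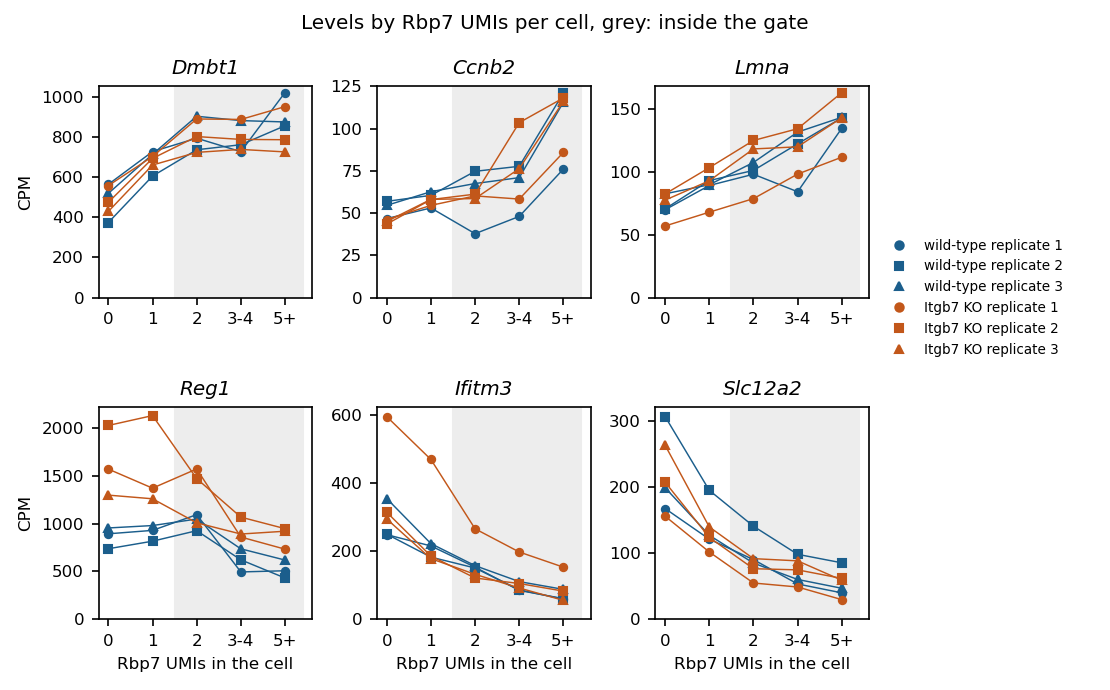
Level in CPM of 6 genes in cells that pass every limit other than that on Rbp7, by the Rbp7 UMIs of the cell (0, 1, 2, 3 to 4, 5 or more), 1 line per library. The grey area is the gate. Dmbt1 rises up to 2 UMIs, Ccnb2 and Lmna are highest at 5 or more, and Ifitm3 and Slc12a2 decline across the whole range.

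The share of Rbp7 gate cells did not differ detectably between the genotypes. Members were 20.7%, 26.8% and 34.2% of kept barcodes in the wild-type libraries (27.2% ± 6.76, SD, n = 3) against 21.2%, 25.5% and 21.4% under the Itgb7 KO label (22.7% ± 2.42, SD, n = 3). The groups overlapped, and the difference of -4.48 percentage points gave p = 0.4 in an exact 2-sided permutation test, where 3 against 3 cannot go below 0.1. Single libraries moved it in both directions. Without wild-type replicate 3 the difference was -1.003. Without wild-type replicate 1 it was -7.75 and the groups no longer overlapped (exact permutation p = 0.1, the smallest 2 against 3 can give), and without both libraries numbered 1 it was -6.99, also without overlap (exact permutation p = 0.333, the smallest 2 against 2 can give).

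The share changed with the depth setting and with the form of the limit on Rbp7. The part of depth in the differences between libraries was not tested. In another setting, cells under 3000 UMIs were dropped and the rest thinned to 3000 before the rule. That left 4228 of 4565 kept cells in Itgb7 KO replicate 3 and all 2773 in wild-type replicate 1. The share was then 3.498%, 10.2% and 13.2% against 4.19%, 11.1% and 11.4%, a difference of -0.06 points (exact permutation p = 1.0). With a limit of 1 Rbp7 UMI per 10000 in place of 2 UMIs, the direction turned, at 0.90 points (exact permutation p = 0.9). Among cells that passed every other limit, the members made up 61.5%, 54.7% and 63.7% against 57.8%, 48.5% and 34.4%, and the lowest value was that of the shallowest library. That difference of -13.1 points gave an exact permutation p of 0.2. A share of captured cells cannot tell fewer such cells from less Rbp7 RNA per cell.

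**Figure D4:**
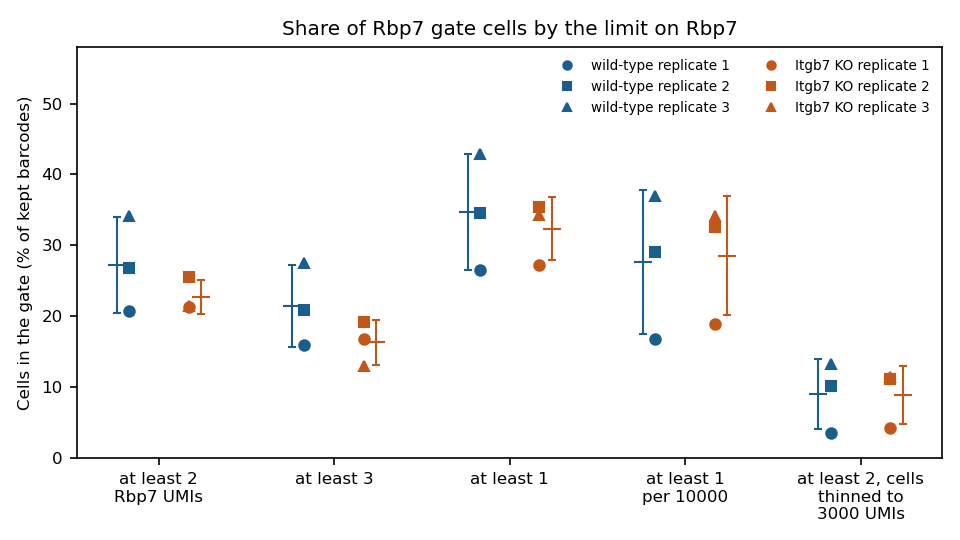
Rbp7 gate cells as % of kept barcodes under 4 limits on Rbp7 and after thinning to 3000 UMIs, where cells with fewer were dropped. Each library has 1 point, with the mean and SD of each group (n = 3) beside the points. The groups overlap under every limit, and the libraries numbered 1 (circles) lie lowest after thinning, at 3.498% and 4.19%.

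Cells that passed the other limits, whatever their Rbp7, numbered 13047, the 6713 gate cells among them. In these, Rbp7 stood at 130, 264 and 311 CPM in the wild-type libraries and 145, 266 and 244 CPM in those labelled Itgb7 KO (exact permutation p = 0.8). The groups overlapped, with both libraries numbered 1 lowest. Casp6 in the same cells stood at 241, 270 and 248 against 286, 331 and 318 CPM, with no overlap (253 ± 14.9 and 312 ± 23.6 CPM, SD, n = 3; exact permutation p = 0.1, the smallest 3 against 3 can give). Dmbt1 and Arg2 overlapped, each with an exact permutation p of 0.7. Over all kept barcodes Casp6 overlapped too, at 155, 194 and 178 against 191, 264 and 243 CPM (exact permutation p = 0.2).

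Gene by gene, counts were summed over the gate in each library and tested with edgeR's quasi-likelihood test, with Benjamini-Hochberg adjustment over 11457 genes. No gene passed an adjusted p of 0.05 (0.0%), while 372 genes (3.25%) had an unadjusted p under 0.05. DESeq2 on the same sums called 14 of 15352 genes (0.0912%), 11 higher (0.0717%) and 3 lower (0.0195%) in the libraries labelled Itgb7 KO. Serial numbers carried with the data set the libraries numbered 1 apart, and with that split as a term edgeR called 4 genes (0.0349%), 3 higher (0.0262%) and 1 lower (0.00873%). Without the filter on low counts edgeR called 2 genes (0.0115%), 1 in each direction (0.00577%), and without both libraries numbered 1 also 2 (0.0172%), again 1 in each direction (0.00862%). Where replicate numbers entered as a block, 0 genes (0.0%) passed, with 849 under an unadjusted p of 0.05. The Paneth RNA, depth and mitochondrial share of the libraries differ as given above, and their part in the gene tests was not tested beyond these settings. The libraries did not overlap for 189 genes that were higher (1.65%) and 521 that were lower (4.55%). With marker-rich cells left out these were 367 (3.20%) and 684 (5.97%) of 11456 genes, 1 repeated symbol being dropped.

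The genes that name the population were as follows. Rbp7, which the rule used, stood in the gate at 184, 430 and 436 CPM in the wild-type libraries against 218, 464 and 551 CPM in those labelled Itgb7 KO. Dmbt1 stood at 866, 803 and 882 against 919, 791 and 730 CPM, a log2 difference of -0.05 (SE 0.22, adjusted p = 0.978 by edgeR). Arg2 stood at 340, 467 and 284 against 367, 424 and 457 CPM, a log2 difference of 0.19 (SE 0.20, adjusted p = 0.932 by edgeR).

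Both genes overlapped between the genotypes, and the sign for Dmbt1 turned when some libraries were left out. Casp6 did not overlap: it stood at 246, 300 and 262 against 313, 358 and 362 CPM, a log2 difference of 0.36 (SE 0.13, unadjusted p = 0.024, adjusted p = 0.932 by edgeR), so it did not pass the test. The gene lies on chromosome 3 (129901425 to 129914103, plus strand) of mm10. Rbp7 lies on chromosome 4 (149449687 to 149454978, minus strand), Dmbt1 on chromosome 7 (131032053 to 131121630, plus strand) and Arg2 on chromosome 12 (79130777 to 79156301, plus strand). Cdh1, E-cadherin, the ligand of integrin αEβ7, stood at 166, 180 and 189 against 178, 159 and 144 CPM, with overlap (log2 difference -0.13, SE 0.18, adjusted p = 0.943 by edgeR). Itgb1, the integrin β1 chain of epithelial cells, differed by 0.11 (SE 0.12) on the log2 scale, also with overlap.

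The 2 genes with the smallest p were 2210407C18Rik and Agpat4. The first, a protein-coding gene on chromosome 11 (58608204 to 58616075, minus strand), stood at 107, 145 and 114 CPM in the wild-type libraries and 295, 314 and 361 CPM in those labelled Itgb7 KO. Its log2 difference was 1.41 (SE 0.15, adjusted p = 0.18 by edgeR and 1.6e-14 by DESeq2), and every library labelled Itgb7 KO exceeded every wild-type one. Over all alternatives its adjusted p ran from 1.6e-14 to 0.999. Agpat4, an acyltransferase of phospholipid synthesis on chromosome 17 (12118704 to 12219645, plus strand), stood at 14.3, 11.7 and 11.4 against 1.41, 2.64 and 0.972 CPM. That is 225, 189 and 249 UMIs against 20, 37 and 6, a log2 difference of -2.84 (SE 0.33, adjusted p = 0.204 by edgeR and 2e-11 by DESeq2, with a range of 2e-11 to 0.999 over all alternatives). Both passed edgeR without the filter on low counts, with the serial number term and without both libraries numbered 1. The other genes DESeq2 called were Psmb8, AW112010, Ghrl and H2-D1, given below, and Nkx6-3, Ifi47, Otop3, Hspa1b, Gm766 and Ube2l6 as higher and Mtus2 and Fkbp5 as lower.

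Antigen presentation genes lay higher in the gate cells labelled Itgb7 KO, and none passed edgeR's test without the serial number term. Psmb8, an immunoproteasome subunit on chromosome 17 (34197721 to 34201454, plus strand), stood at 142, 126 and 158 against 299, 286 and 284 CPM. Its log2 difference was 1.03 (SE 0.18, adjusted p = 0.932 by edgeR and 0.00068 by DESeq2, with a range of 0.00068 to 0.9997 over all alternatives), and the groups did not overlap. With the serial number term edgeR called it (log2 difference 1.03, adjusted p = 0.0339). Psmb9, its partner subunit, stood at 96.1, 118 and 133 against 157, 174 and 172 CPM. The class I heavy chain H2-D1 stood at 274, 337 and 360 against 406, 516 and 445 CPM, and DESeq2 called it (adjusted p = 0.0196, the lowest over its alternatives, which reached 0.9997). All 17 tested genes of the class I and immunoproteasome list had a positive log2 difference, with a median of 0.33, and 10 did not overlap, or 8 with marker-rich cells left out. Over all genes tested the median was -0.00, 49.9% were positive and 1.65% were higher without overlap, or 3.20% with marker-rich cells left out. The list's sum did not overlap in other cells either, so the direction was not particular to the gate. It was 4200 to 4617 against 5128 to 6424 CPM in apolipoprotein-high cells and 2660 to 2939 against 3257 to 3927 CPM in cycling cells.

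MHC class II genes, which present extracellular peptides to CD4+ T cells, were measured at modest levels. Cd74, the invariant chain, stood at 232, 26.2 and 156 CPM in the wild-type libraries against 542, 610 and 497 CPM in those labelled Itgb7 KO. H2-Ab1 stood at 59.6, 12.8 and 47.4 against 159, 137 and 96.2 CPM. The wild-type libraries differed among themselves several-fold, with replicate 2 lowest, yet all lay below the other group. The 6 tested genes of the list were all higher without overlap, against 1.65% of all genes. Their median log2 difference was 1.74 and ran from 1.25 to 2.53 when each library was left out in turn. None of the 6 passed edgeR or DESeq2. For Cd74 the log2 difference was 1.91 (SE 0.70, adjusted p = 0.932 by edgeR). The direction was not particular to the gate, since the list's sum did not overlap in other cells either. It was 56.5 to 332.5 against 572 to 707 CPM in apolipoprotein-high cells. In Fabp6-high cells it was 76.7 to 614 against 1289 to 2435 CPM, and in cycling cells 114 to 592 against 859 to 1264 CPM.

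Interferon response genes showed the same direction with less order. Of 34 tested, 32 were positive, with a median log2 difference of 0.92, and 6 were higher without overlap, against 1.65% of all genes. Igtp, an interferon-inducible GTPase, stood at 2.61, 1.30 and 4.75 against 17.6, 6.41 and 9.23 CPM. The median was 0.31 without Itgb7 KO replicate 1 and 0.25 without both libraries numbered 1.

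The lower villus list, which holds the rule gene Rbp7, gave 12 positive genes of 15 and a median log2 difference of 0.19. Higher without overlap were 4 genes, against 1.65% of all genes. The median was 0.018 without wild-type replicate 2, 0.031 without wild-type replicate 3, 0.089 without Itgb7 KO replicate 1, 0.12 without Itgb7 KO replicate 3 and 0.30 without wild-type replicate 1, so single libraries set its size. Besides Casp6, the genes without overlap were Reg1, Gsdmc2 and Gsdmc4. Reg1 stood at 627, 591 and 730 against 932, 1113 and 943 CPM (log2 difference 0.61, SE 0.17, adjusted p = 0.932 by edgeR). Lypd8, a secreted protein that keeps flagellated bacteria off the epithelium, stood at 2914, 2952 and 3365 against 4101, 3731 and 3221 CPM and overlapped. Gsdmc4 stood at 62.3, 75.7 and 81.0 against 94.8, 92.0 and 90.2 CPM.

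Caspases, gasdermins and inflammasome genes were positive in 20 of 26, with a median of 0.12, or 0.062 without Itgb7 KO replicate 3. Free of overlap were 3, all higher, against 1.65% of all genes. With marker-rich cells left out they were 5, against 3.20%. Casp1, the inflammatory caspase, stood at 137, 173 and 105 against 162, 239 and 277 CPM and overlapped. Pycard, the inflammasome adaptor, stood at 1764, 2034 and 2037 against 2013, 2229 and 2056 CPM, also with overlap. In the list of arginine and polyamine metabolism, which holds Arg2, 16 of 24 were positive with a median of 0.09, which ran from 0.0089 without Itgb7 KO replicate 3 to 0.11 as each library was left out. In that list 2 genes (8.33%) did not overlap, both lower, against 4.55% of all genes. With marker-rich cells left out it was 1, against 5.97%, too few genes to set the list apart.

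Retinoid handling, the pathway of Rbp7, showed no common direction. Of 28 genes tested, the rule gene Rbp7 among them, 15 were positive. The median log2 difference was 0.03, with a range of -0.04 to 0.08 as each library was left out. Rbp2 stood at 871, 1291 and 1141 against 1038, 1385 and 1297 CPM, a log2 difference of 0.18 (SE 0.13, adjusted p = 0.932 by edgeR). Adh4, an alcohol dehydrogenase that can oxidise retinol, was the list's gene with the smallest p, at 5.16, 6.68 and 5.89 against 7.33, 9.41 and 12.1 CPM, without overlap.

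Among the functions of a maturing enterocyte, xenobiotic enzymes were positive in 24 of 28, with a median of 0.23. No gene was free of overlap, or 1 was higher, against 3.20% of all genes, with marker-rich cells left out. The median was 0.14 without Itgb7 KO replicate 3 and 0.37 without wild-type replicate 2. Gsta1 stood at 125, 189 and 164 against 211, 181 and 265 CPM. Brush border enzymes were positive in 6 of 17 (median -0.03, from -0.18 to 0.0085 as each library was left out), and Mgam, maltase-glucoamylase, stood at 172, 169 and 199 against 128, 136 and 111 CPM without overlap (log2 difference -0.52, SE 0.17, adjusted p = 0.932 by edgeR). Fatty acid uptake and lipid packaging, whose list holds the rule's 3 apolipoproteins, was positive in 11 of 20. Its median was 0.10, from -0.08 to 0.13 as each library was left out. Fabp1 overlapped at 732, 1281 and 949 against 695, 1465 and 1460 CPM. Enterocyte transcription factors were positive in 20 of 37 (median 0.01, from -0.04 to 0.03).

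Ribosomal protein and stem genes lay on the low side. None of the 26 ribosomal protein genes was positive, and the median was -0.23. Lower without overlap were 12, against 4.55% of all genes, or 4, against 5.97%, with marker-rich cells left out. The summed level of all 26 was 84968 to 98694 CPM in the wild-type gate and 75466 to 82355 in the other. Without marker-rich cells the sums overlapped, at 92742 to 101160 and 75468 to 96845 CPM. The median was -0.42 without Itgb7 KO replicate 1, and -0.14, -0.15 and -0.15 without wild-type replicate 1, Itgb7 KO replicate 2 and Itgb7 KO replicate 3. Rplp0 stood at 4737, 5143 and 5360 against 4420, 4584 and 4008 CPM. Stem markers were positive in 3 of 13, with a median of -0.22, or -0.12 without wild-type replicate 2 and -0.11 without Itgb7 KO replicate 1. Lgr5, the receptor that marks stem cells, stood at 5.23, 5.07 and 5.53 against 2.96, 3.85 and 2.75 CPM without overlap (log2 difference -0.71, SE 0.21, adjusted p = 0.932 by edgeR).

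Other genes without overlap and with the smallest p included AW112010, a long noncoding RNA (38.0, 29.6 and 32.0 against 60.4, 67.8 and 89.7 CPM), and Sdf2l1, an endoplasmic reticulum stress gene (74.4, 83.1 and 81.9 against 95.1, 118 and 111 CPM). Ghrl, the ghrelin gene of enteroendocrine cells, stood at 30.02, 12.4 and 20.8 against 54.5, 57.9 and 110 CPM. Without marker-rich cells Ghrl overlapped, at 13.8, 4.21 and 18.5 against 22.5, 29.8 and 14.7 CPM, and DESeq2 no longer called it. On the lower side, Ndrg1, a stress-responsive gene, stood at 35.6, 37.4 and 38.2 against 25.9, 30.5 and 23.8 CPM, and Kcnq1, a potassium channel subunit, at 45.2, 51.9 and 42.1 against 33.3, 36.0 and 24.8 CPM. Enteroendocrine marker genes as a list had a median of 0.91, which was 0.10 once cells rich in other secretory markers were left out. Those cells numbered 34, 15 and 18 in the wild-type gate against 38, 22 and 7 in the gate labelled Itgb7 KO.

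**Figure D5:**
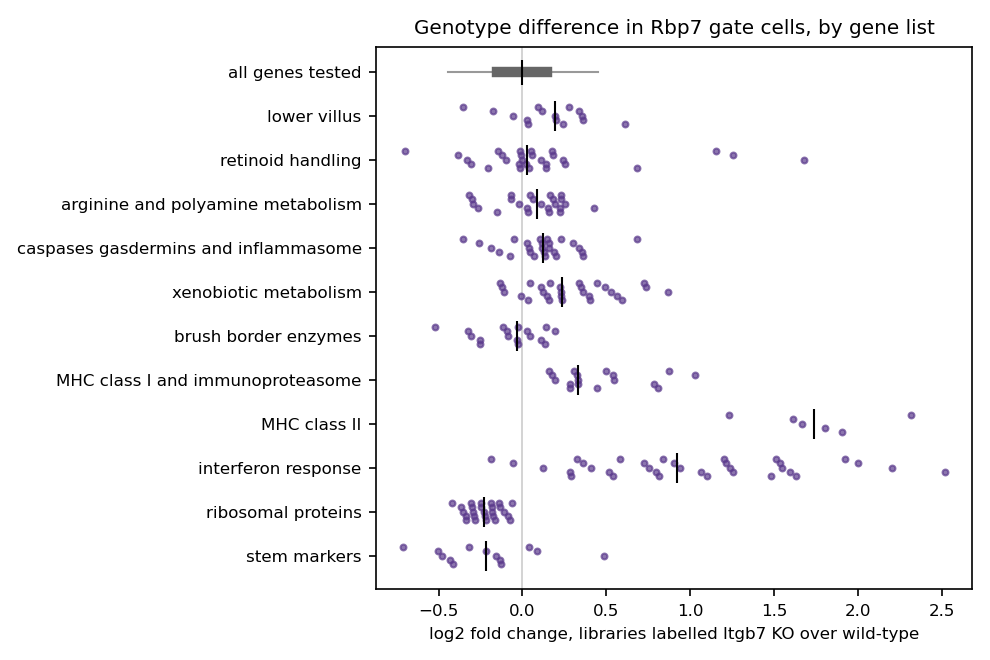
Log2 fold change (libraries labelled Itgb7 KO over wild-type, edgeR) of each tested gene in 11 lists, 1 point per gene, with list medians as vertical bars. The top row gives all 11457 genes tested, with the median, the middle 50% (thick) and the middle 90% (thin). MHC class II lies farthest to the right (median 1.74), and every ribosomal protein gene lies left of 0.

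Whether the genotype difference in gate cells was like that in other enterocytes was tested as an interaction in edgeR with a term for each library. Against apolipoprotein-high cells, 0 of 10424 genes (0.0%) were called, with 343 at an unadjusted p under 0.05, and 15 without Itgb7 KO replicate 1. Against Fabp6-high cells 1 of 10239 (0.00977%) was called, the proglucagon gene Gcg. Against cells with at least 2 Ada UMIs, 49 of 10116 (0.484%) were called, 16 of them Paneth markers or named defensins. A single library, wild-type replicate 1, held more than 90% of the Ada cells' UMIs for 32 of the 49, those 16 and 16 others. The 16 others were only outside the marker list and the Defa names, so they may include more Paneth genes. Among them, Gm15308 and Gm14850 had 13888 and 8529 UMIs in the Ada cells of that library. The Ada cells numbered 5 to 16 per library, and 1 of the 10 in wild-type replicate 1 was Paneth-rich. With cells rich in other secretory markers left out, 8 genes were called. On simulated counts, with 100 genes changed by 1 on the log2 scale, the fit recovered 13 against apolipoprotein-high cells. It recovered 16 against Fabp6-high cells and 3 against Ada cells. Of 100 genes changed by 2, it recovered 84, 83 and 31 in the same order. The simulated counts held no deviation shared by the 2 populations of a library, which real libraries can have, so these recoveries are a rough guide. Few calls do not show that the genotype differences were alike.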

How the data were processed

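Libraries were made with the 10x Genomics Single Cell 3′ version 2 kit, per the labels' protocols. The submitters' processing notes name bcl2fastq 2.17.1.14, Cell Ranger 2.1.1, Seurat and the build mm10. The deposited files hold raw UMI counts per gene and barcode (27998 genes), per the file headers and values. Members were found by the rule in Python 3.11.15, doublet scores came from Scrublet in scanpy 1.11.5, and counts were summed per library. Sums were fitted in R 4.3.3 with edgeR 4.0.16 (TMM scaling, filterByExpr, quasi-likelihood test) and, as an alternative, DESeq2 1.42.0. Both tools' adjusted p-values use the Benjamini-Hochberg method. CPM are unscaled by TMM. Ratios between populations used CPM plus 5. The edgeR fits were tested on simulated data. Positions are from GENCODE M21 (mm10).

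The members and the 30 gene lists were chosen with earlier results of these data known. Named genes were the rule and naming genes; where fewer than 16 genes were called, up to 8 per direction with the smallest p among those without overlap whose mean log2 CPM reached 5; per list, the 3 most abundant members and that with the smallest p; and 15 by level and 15 by ratio to the other populations. Genes in the bins of Rbp7 UMIs, genes compared with single populations, DESeq2 calls, Gsdmc2, Gsdmc4 and Gcg were chosen after their values were seen.

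Replicate numbers come from the titles. Deviations from the group means of same-numbered libraries correlated at 0.75, 0.50 and 0.27 over 11457 genes, all above 0.1, so the numbers were treated as pairs in the replicate block. Wild-type 2 correlated more with Itgb7 KO 3 (0.60) than with its own number, and wild-type 3 with Itgb7 KO 2 at 0.24, so numbers 2 and 3 are not specific pairs.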

Additional observations from a re-analysis of the deposited data

Results flagged for a closer look

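The genotype difference in Rbp7 gate cells departed from that in cells with at least 2 Ada UMIs for 49 genes, tested as an interaction in edgeR, 43 with a higher and 6 with a lower value in the gate. Defensin genes led: for Defa5 the log2 difference of differences was 8.89 (SE 0.56), and wild-type replicate 1 held 1457 Defa5 UMIs in its 10 Ada cells, of which 1 was Paneth-rich. Wild-type replicate 1 held more than 90% of the Ada cells' UMIs for 32 of the 49 genes. Outside the Paneth genes, Reg1 had a value of -1.78 (SE 0.28, adjusted p = 6.2e-08 in edgeR), and was not among the 51 genes called without Itgb7 KO replicate 3, whose 5 Ada cells held 138 Reg1 UMIs (4395 CPM), nor among the 34 called at a mean CPM of at least 20. Without wild-type replicate 1 the count was 16, and without Itgb7 KO replicate 1 it was 8. With cells rich in other secretory markers left out it was also 8, Reg1 and Gsta1 among them.

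Against Fabp6-high cells the genotype difference departed for 1 gene, Gcg, proglucagon, with a log2 difference of differences of 3.41 (SE 0.48, adjusted p = 0.0058 in edgeR). In the gate Gcg had 369, 66 and 545 UMIs in the wild-type libraries against 2641, 1021 and 128 where labelled Itgb7 KO. Gate cells with more than 20 enteroendocrine marker UMIs per 10000 numbered 1, 4 and 4 against 7, 8 and 5. With cells rich in secretory markers left out, Gcg was not called, and Reg1 (1.004) and Naaladl1 (-0.86) were.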

How the results depend on the processing

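Depth limits the gate, since the rule asks for 2 Rbp7 UMIs and 0 Ada UMIs in cells whose median depth differs between libraries. The share difference of -4.48 points became 0.90 with at least 1 Rbp7 UMI per 10000, and ran from -7.75 to -1.003 when each library was left out. The 0 genes of edgeR became 14 with DESeq2, 2 without the filter on low counts, 4 with the serial number term and 2 without both libraries numbered 1. The cause was not tested. DESeq2 without cells rich in secretory markers called 16. The count stayed 0 when each library was left out and under every other edgeR setting run, the replicate block included (0 genes).

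The interaction with Ada cells (49 genes) ran from 8 to 51 when each library was left out, and gave 8 with cells rich in secretory markers left out and 8 without both libraries numbered 1. That with apolipoprotein-high cells (0 genes) ran from 0 to 15, and gave 1 and 18 under the same 2 settings. That with Fabp6-high cells (1 gene) ran from 0 to 6, and gave 2 and 4, and 0 at a mean CPM of at least 20. Genes above all 3 other populations (4) ran from 4 to 13, and were 365 by the median of the 6 ratios, 2 after thinning and 12 with marker-rich cells left out.

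Among single genes, the sign turned only when a library was left out: Rbp7 ran from -0.011 to 0.48 and Dmbt1 from -0.28 to 0.089 on the log2 scale. The settings named for secretory-rich cells and for both libraries numbered 1 were chosen after seeing the data. The gene test at the largest library minimum of UMIs was not run, since 1 library kept too few cells. The replicate block changed no call.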
